A study of Sus scrofa with 12 samples.

Results

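The adipokines adiponectin (ADIPOQ), leptin (LEP), resistin (RETN) and adipsin (CFD), the adiponectin and leptin receptors ADIPOR1, ADIPOR2, CDH13 and LEPR, and the fat-related genes GPD1 and CIDEA were examined in porcine muscle. They were chosen by name: a row of the gene count table belonged to the set when its Ensembl identifier carried one of these 10 symbols in the pig gene names. In all, 9 of the 10 had a row and at least 1 count among the 25880 genes listed, and 8 of them were tested among 14262 genes that passed the filter on low counts. CIDEA, whose protein coats lipid droplets, had no row under its identifier and was not analysed here. RETN had 6 counts in all and did not pass the filter.

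Polyadenylated RNA of the Semimembranosus muscle, a large muscle of the ham, was measured in 12 Italian Large White (ILW) pigs to learn which genes differ with intramuscular fat (IMF). The high IMF group held pigs 1 to 6 and the low IMF group pigs 7 to 12, and the labels gave 3 gilts and 3 barrows (castrated males) in each. No group carried a treatment or an altered gene. The pigs were 229 to 249 days old at sampling, shared housing and diet, and were slaughtered commercially, and each contributed 1 library of its own. The muscle was taken whole, so that fibres, fat cells, vessels and connective tissue were read together.

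The libraries held 131048805 to 178013997 counts in genes, and between 15270 (pig 7) and 17554 (pig 6) genes had at least 1 count. Of 12 muscle fibre markers 5 had a row, and their summed level was 31430 to 60162 CPM, led by ACTA1, CKM and TNNT3. Counts of 2 Y-linked genes, which ranged up to 6 in some pigs and from 3734 in the others, went against the labelled sex of 6 of the 12 pigs, 2 in the high and 4 in the low IMF group. Whether those pigs also carry the wrong group label was not tested, and each comparison of groups below is between the libraries as labelled. The correlations over all 12 pigs do not use the group label, whereas those within a group or after centring do.

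Adiponectin and leptin are hormones secreted mainly by mature fat cells. Adiponectin acts in muscle through ADIPOR1 and ADIPOR2, which engage the adaptor APPL1 and AMP-activated protein kinase and favour fatty acid oxidation, while CDH13 (T-cadherin) binds its large oligomers on the surface of vascular and stromal cells. Leptin reports fat stores to the brain and signals through LEPR and the kinase JAK2 to STAT transcription factors. Adipsin is complement factor D, the protease that starts the alternative complement pathway, and resistin is made mainly by fat cells in rodents and by blood leukocytes in humans. GPD1, a cytosolic glycerol-3-phosphate dehydrogenase, links glycolysis to triglyceride synthesis and is abundant in muscle fibres as well as in fat cells.

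The 9 genes with a row lay on 6 chromosomes of the build Sscrofa11.1 (RefSeq annotation). ADIPOQ spans chr13:124633906-124646237 on the plus strand with 4 exons, and LEP spans chr18:20106867-20124071 on the minus strand with 4 exons in its longest transcript. ADIPOR1 lies at chr10:24907491-24923540 on the minus strand, ADIPOR2 at chr5:68755789-68807247 on the plus strand and LEPR at chr6:146802297-146896152 on the minus strand. CDH13 covers chr6:4809752-5832188 on the minus strand with 14 exons, CFD chr2:77509792-77511988 on the minus strand with 5 exons, RETN chr2:71484164-71485577 on the minus strand with 4 exons, and GPD1 chr5:16008179-16021676 on the plus strand with 9 exons. CFD overlaps MED16, ADIPOR2 overlaps CACNA2D4 and RETN overlaps PCP2, each on the opposite strand, and GPD1 overlaps the protein-coding locus LOC110260660 on its own strand and a long non-coding RNA on the other. CDH13 overlaps 2 long non-coding RNAs on the opposite strand. The libraries were made with a kit that keeps the strand, but the strand setting of the counting is not given in the sources used here, so the counts of these 5 genes may include reads of their neighbours.

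The 250 bases before the RefSeq gene start are shown for ADIPOQ and LEP, the pair of genes whose levels followed each other across pigs, and for the receptors ADIPOR1 and ADIPOR2, which did not. Each is written 5′ to 3′ along the strand of its gene in Sscrofa11.1, and capitals mark the motifs found. The motif CCAAT is the CCAAT box and reads as ATTGG where it lies on the opposite strand. The motif GGGCGG is the core of the GC box bound by Sp1. The windows were also searched on both strands for TATAAA (the TATA box), for TGACCT (a nuclear receptor repeat unit) and for CACGTG (an E-box), which had no match in these 4 windows. No motif found overlaps another.
ADIPOQ, chr13:124633656-124633905, plus strand: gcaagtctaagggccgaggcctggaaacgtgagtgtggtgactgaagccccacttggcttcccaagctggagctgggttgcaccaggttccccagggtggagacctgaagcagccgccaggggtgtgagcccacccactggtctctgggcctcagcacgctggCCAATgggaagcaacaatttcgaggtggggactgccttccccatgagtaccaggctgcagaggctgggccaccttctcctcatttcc
LEP, chr18:20124072-20124321, minus strand: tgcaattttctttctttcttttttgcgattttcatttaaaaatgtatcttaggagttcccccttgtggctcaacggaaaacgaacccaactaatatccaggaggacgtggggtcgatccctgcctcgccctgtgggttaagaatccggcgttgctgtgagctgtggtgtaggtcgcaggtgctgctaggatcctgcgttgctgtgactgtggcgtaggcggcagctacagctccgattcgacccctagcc
ADIPOR1, chr10:24923541-24923790, minus strand: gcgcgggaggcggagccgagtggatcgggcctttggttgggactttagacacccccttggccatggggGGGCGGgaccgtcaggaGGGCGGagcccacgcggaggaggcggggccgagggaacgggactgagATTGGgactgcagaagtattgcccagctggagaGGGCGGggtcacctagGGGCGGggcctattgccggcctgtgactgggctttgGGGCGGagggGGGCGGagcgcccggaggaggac
ADIPOR2, chr5:68755539-68755788, plus strand: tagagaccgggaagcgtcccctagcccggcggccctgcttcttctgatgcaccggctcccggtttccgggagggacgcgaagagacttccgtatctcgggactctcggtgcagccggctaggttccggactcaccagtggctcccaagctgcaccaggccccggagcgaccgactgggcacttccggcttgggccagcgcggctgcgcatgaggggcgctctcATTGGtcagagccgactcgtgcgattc

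The ADIPOQ window held CCAAT once, 87 to 83 bases before the gene start, and the LEP window held none of the 5 motifs. These windows lie before the outermost start of the RefSeq gene model, and LEP has 6 transcripts. Which start is used in muscle was not tested, so the lack of a shared motif holds for these windows only. ADIPOR1 had 6 copies of GGGCGG and 1 of CCAAT, in a window of 71.2% G and C, whereas ADIPOR2 had 1 CCAAT and no GGGCGG at 67.2%. Among the 19556 windows of protein-coding genes, 31.9% held CCAAT and 45.9% held GGGCGG, so both are common. A match describes letters and not binding, and no factor was measured here.

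Levels can be compared between genes only per length, as CPM (counts scaled to a common library size) divided by the kilobases of RefSeq exons. GPD1 was highest, at 169 ± 21.8 CPM per kilobase (SD, n = 12). ADIPOR1 followed at 48.7 ± 4.82, ADIPOQ at 43.7 ± 27.2, CDH13 at 28.7 ± 4.08, CFD at 17.1 ± 4.41 and ADIPOR2 at 12.8 ± 3.31. LEPR, at 0.422 ± 0.222, and LEP, at 0.0853 ± 0.0718, were far below. Within 1 SD, ADIPOQ overlapped ADIPOR1 and CDH13, and CFD overlapped ADIPOR2. These SDs describe the spread between pigs, and whether such neighbours differ within pigs was not tested. The exon lengths are those of RefSeq and not of the Ensembl models that were counted. With the longest transcript in place of all exons LEPR was at 0.602 and LEP at 0.131, with the order kept.

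**Figure D1:**
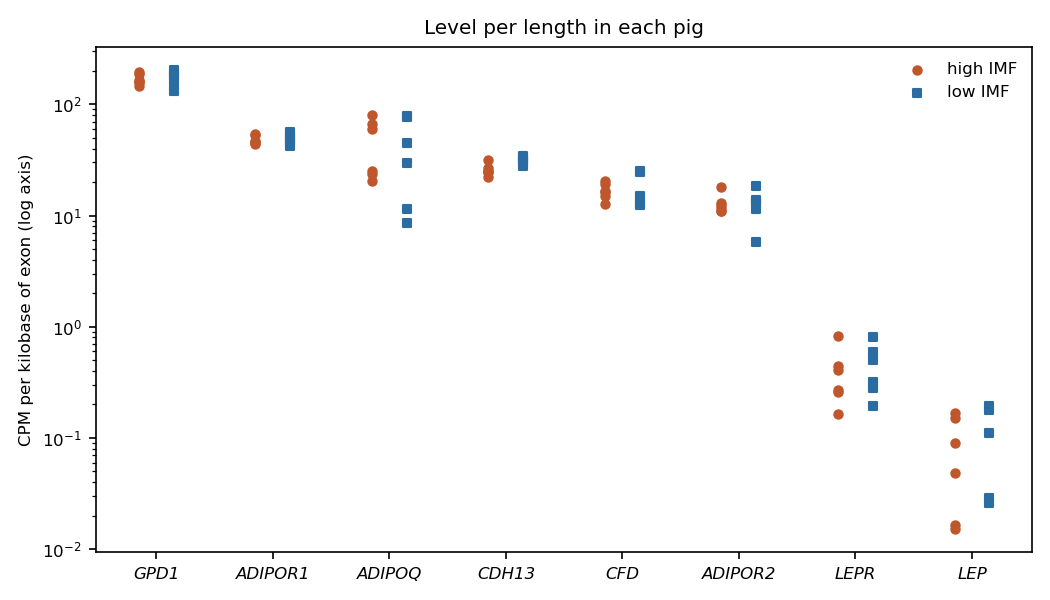
Level per length in each pig, in CPM per kilobase of exon on a log axis, for the 8 tested genes ordered by their mean. Circles are high IMF and squares low IMF pigs. GPD1 is highest, 6 genes lie above 5 in every pig, and LEPR and LEP stay below 1 in every pig; the LEP value of 0 in pig 7 cannot be drawn on this axis.

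None of the 8 tested genes was called different between the groups at an adjusted p of 0.05 with a log2 fold change of at least 0.58 in size (edgeR quasi-likelihood test). Among all 14262 genes 0 were called, a background of 0%. DESeq2 called 57 of the same genes and none of the 8, but gave LEP no adjusted p. At an unadjusted p of 0.05, 1 of the 8, CDH13, was higher in low IMF pigs and 0 were higher in high IMF pigs, against 10.4% of all genes in either direction, 5.38% higher in low IMF and 5.04% higher in high IMF. None of the 8 had groups that did not overlap, a pattern seen in 0.659% of all genes. The median log2 fold change (low over high IMF) of the 8 genes was 0.05 and that of all genes -0.0083, and 6 were positive and 2 negative. In whole muscle, fewer cells of a type and less RNA per cell cannot be told apart.

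**Figure D2:**
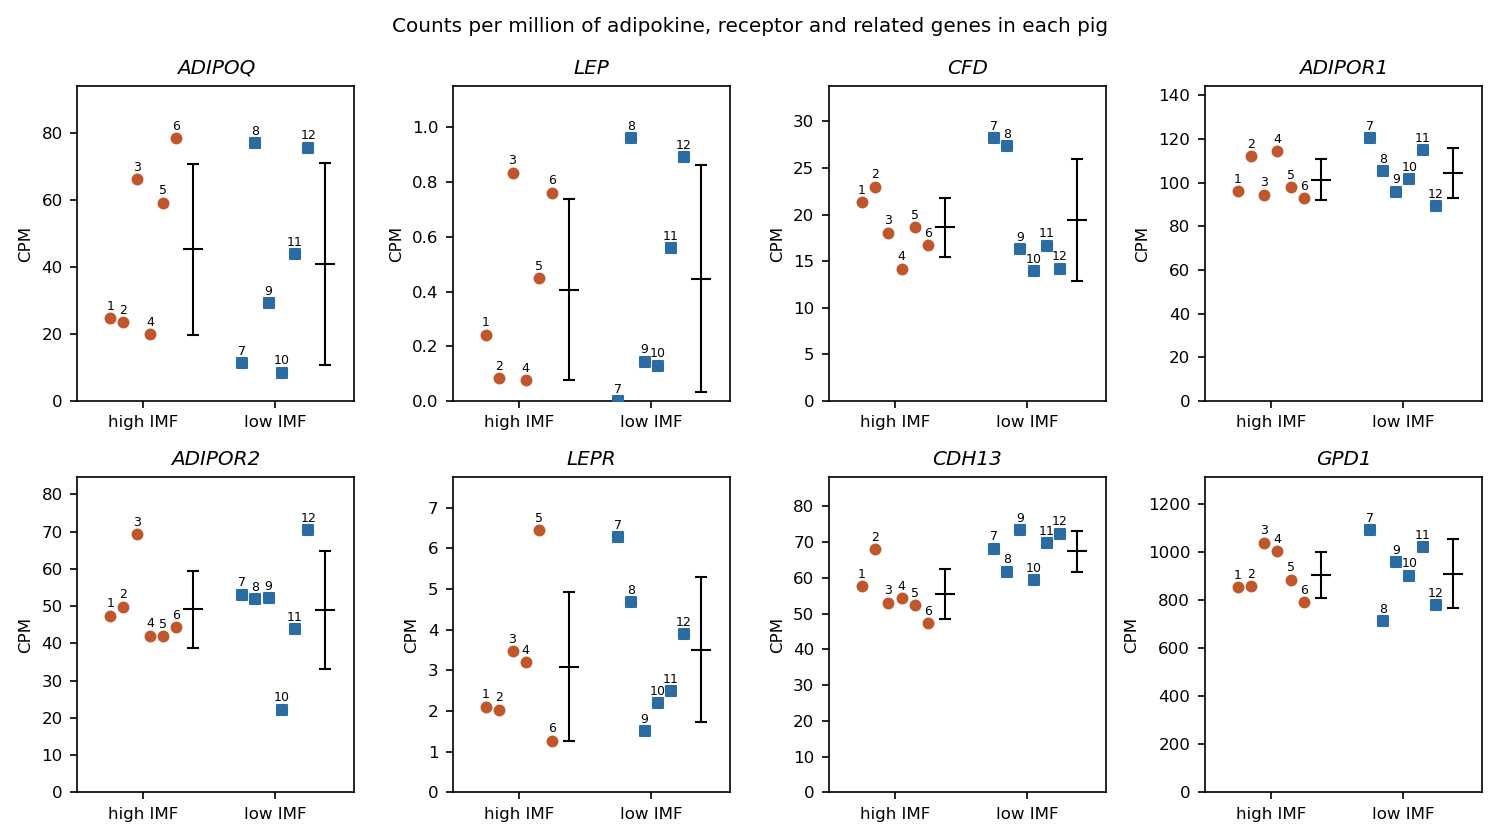
CPM of each of the 8 tested genes in every pig, by IMF group, on linear axes that start at 0. Points are pigs, with their number, and the bar beside each group is its mean ± SD (n = 6). ADIPOQ and LEP spread widely in both groups, ADIPOR1 stays within 89.2 to 120 CPM, and CDH13 has its 4 highest pigs, 9, 12, 11 and 7, in the low IMF group.

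ADIPOQ in high IMF pigs 1 to 6 was 24.7, 23.5, 66.1, 19.9, 59.2 and 78.3 CPM, and in low IMF pigs 7 to 12 it was 11.2, 76.9, 29.1, 8.40, 43.9 and 75.5 CPM. Each group held pigs near 20 CPM or below and pigs above 70 CPM, so that the groups overlapped over nearly their whole range. The means were 45.3 ± 25.5 and 40.8 ± 30.3 CPM (SD, n = 6 each), with a log2 fold change of -0.15 (SE 0.54, 95% interval -1.30 to 1.01, edgeR adjusted p = 0.950, exact permutation p = 0.561). The interval reaches past a log2 fold change of 1 in either direction, and the highest pig had 9.32 times the level of the lowest. The SD of log2 CPM within groups, 1.15, was larger than that of 94.3% of all tested genes, whose median was 0.321.

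LEP was 0.243, 0.083, 0.834, 0.075, 0.448 and 0.761 CPM in pigs 1 to 6 and 0, 0.960, 0.144, 0.129, 0.558 and 0.890 CPM in pigs 7 to 12. The same pigs stood high as for ADIPOQ, namely 3, 6, 8 and 12, and they were divided evenly between the groups. The counts behind these values were few, from 0 in pig 7 to 152 in pig 12. In pig 4, the 11 counts gave an exact 95% binomial interval of 0.0375 to 0.134 CPM, and for pig 8 the 144 counts gave 0.809 to 1.13 CPM, so that the spread between pigs was wider than counting error. The 0 counts of pig 7 gave an exact 95% binomial interval of 0 to 0.0340 CPM. That library had the fewest detected genes and the highest summed level of muscle fibre markers, 60162 CPM. The intervals cover counting error only.

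The group means of LEP were 0.407 ± 0.332 and 0.447 ± 0.416 CPM (SD, n = 6 each). The log2 fold change was 0.14 (SE 0.85, 95% interval -1.69 to 1.97, edgeR adjusted p = 0.972, exact permutation p = 0.792), while the mean of log2 CPM differed the other way, by -0.35, so no direction can be read. The within-group SD of log2 CPM, 1.94, was above that of 99.1% of tested genes.

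CFD varied less than the hormones. It was 21.3, 23.0, 18.1, 14.2, 18.6 and 16.7 CPM in pigs 1 to 6 and 28.2, 27.3, 16.3, 13.9, 16.7 and 14.2 CPM in pigs 7 to 12. Pigs 7 and 8 were highest, and the other 4 low IMF pigs lay within the range of, or just below, the high IMF pigs. Between the groups the log2 fold change was 0.06 (SE 0.20, 95% interval -0.37 to 0.48, edgeR adjusted p = 0.946, exact permutation p = 0.965). Pig 7 had the highest CFD level and, after pig 10, the lowest ADIPOQ level.

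RETN had counts in pig 6 of the high IMF group alone, where 6 counts made 0.0476 CPM with an exact 95% binomial interval of 0.0175 to 0.104 CPM. The other 11 pigs had 0 counts, with the upper end of the same interval at 0.0212 to 0.0340 CPM depending on the pig. Pig 6 also had the highest summed levels of erythroid markers, 636 CPM against 46.3 to 130 in the other pigs, and of neutrophil and lymphocyte markers, 10.1 CPM against 1.77 to 4.82. The part of blood in the RETN counts was not tested.

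The receptors for adiponectin differed in how steady they were. ADIPOR1 was 96.2, 112, 94.5, 114, 98.1 and 92.9 CPM in pigs 1 to 6 and 120, 105, 95.9, 101, 115 and 89.2 CPM in pigs 7 to 12. The highest pig, 7, had 1.35 times the level of the lowest, 12, and 7.57% of tested genes had a smaller within-group SD of log2 CPM. The log2 fold change was 0.04 (SE 0.10, 95% interval -0.16 to 0.25, edgeR adjusted p = 0.909, exact permutation p = 0.621), so that the interval stays under the 0.58 used for calls.

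ADIPOR2 was 47.4, 49.8, 69.3, 42.1, 41.9 and 44.4 CPM in pigs 1 to 6 and 53.1, 52.0, 52.2, 22.2, 43.9 and 70.4 CPM in pigs 7 to 12. Pigs 3 and 12 stood above the others, pig 10 well below, and the remaining 9 lay between 41.9 and 53.1 CPM. Low over high IMF, the log2 fold change was -0.0062 (SE 0.22, 95% interval -0.48 to 0.46, edgeR adjusted p = 0.995, exact permutation p = 0.853). Per length, ADIPOR1 was above ADIPOR2 in 12 of 12 pigs, by 2.30 times in pig 12 to 8.29 times in pig 10, the pig with the lowest ADIPOQ and ADIPOR2 levels.

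LEPR was 2.11, 2.03, 3.48, 3.21, 6.45 and 1.28 CPM in pigs 1 to 6 and 6.27, 4.68, 1.51, 2.19, 2.49 and 3.89 CPM in pigs 7 to 12. Pigs 5 and 7, of opposite groups, had the highest levels and pigs 6 and 9 the lowest. The log2 fold change was 0.18 (SE 0.40, 95% interval -0.68 to 1.04, edgeR adjusted p = 0.910, exact permutation p = 0.645). Pig 7, without a LEP count, was second only to pig 5 for the receptor. The pigs with the most LEP, 8, 12 and 3, came next, at 4.68, 3.89 and 3.48 CPM of LEPR.

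CDH13 was 57.7, 68.0, 53.0, 54.2, 52.3 and 47.2 CPM in pigs 1 to 6 and 68.1, 61.7, 73.4, 59.4, 69.7 and 72.3 CPM in pigs 7 to 12. Pig 2 was the high IMF pig that lay among the low IMF pigs, and pig 1 lay just below the lowest of them, pig 10. The means were 55.4 ± 7.02 in high and 67.4 ± 5.68 CPM in low IMF pigs (SD, n = 6 each), with a log2 fold change of 0.28 (SE 0.10, 95% interval 0.07 to 0.50). The unadjusted p was 0.0127 and the exact permutation p 0.0108, where 0.00216 is the smallest p that 6 pigs against 6 can give. After adjustment over all genes the edgeR p was 0.427, at rank 416 of 14262, so the difference did not pass. Its size is also under the 0.58 required for a call.

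Markers of vessels and connective tissue were measured beside CDH13. Of 9 tested endothelial markers, 2 were higher in low IMF pigs and 0 higher in high IMF pigs at an unadjusted p of 0.05. Of all genes, 5.38% were higher in low IMF and 5.04% higher in high IMF pigs at that p. The 2 were the adhesion molecule CDH5 (VE-cadherin, log2 fold change 0.55) and the VEGF receptor FLT1 (0.56). Over the 9, 6 log2 fold changes were positive and 3 negative, those of KDR (-0.096), EMCN (-0.092) and ROBO4 (-0.28). The summed endothelial markers ran from 128 to 174 CPM in high and from 137 to 216 CPM in low IMF pigs (exact permutation p = 0.139), PECAM1 being the most abundant, with EGFL7 at 0 in every pig. Summed fibro-adipogenic stromal markers ran from 2142 to 3687 CPM in high and from 2901 to 4459 CPM in low IMF pigs (exact permutation p = 0.0823), with PDGFRA higher in high IMF (log2 fold change -0.42) and GSN higher in low IMF pigs (0.39) at an unadjusted p of 0.05 among 11 tested. Macrophage markers ran from 85.6 to 199 CPM in high and from 95.4 to 168 CPM in low IMF pigs, with ITGAM (-1.06) and AIF1 (-0.46) of 10 tested higher in high IMF pigs at an unadjusted p of 0.05. Among the stromal markers 8 log2 fold changes were positive and 3 negative, and among the macrophage markers 2 were positive and 8 negative. The part of these cells in the CDH13 difference was not tested.

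GPD1 was 854, 858, 1039, 1004, 886 and 791 CPM in pigs 1 to 6 and 1092, 712, 959, 901, 1020 and 780 CPM in pigs 7 to 12. Pig 7 was highest and pig 8 lowest, both in the low IMF group, and the high IMF pigs lay between them. For GPD1 the log2 fold change was 0.0087 (SE 0.12, 95% interval -0.25 to 0.27, edgeR adjusted p = 0.989, exact permutation p = 0.998).

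**Figure D3:**
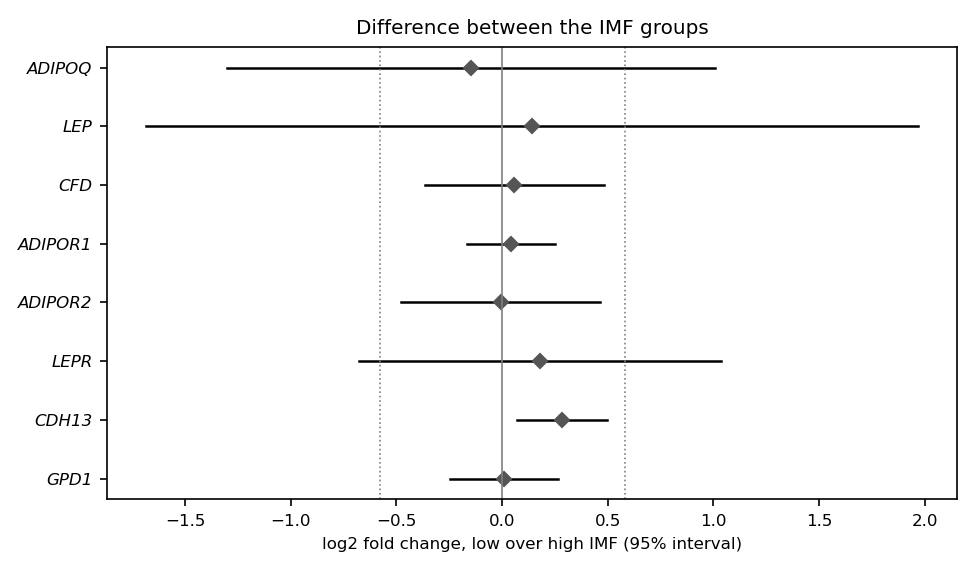
Log2 fold change of low over high IMF for the 8 tested genes (diamonds) with the 95% interval (lines), from the edgeR fit. The dotted lines mark 0.58 in either direction. The CDH13 interval, 0.07 to 0.50, is the interval that leaves out 0, and the intervals of ADIPOQ, LEP and LEPR are the widest.

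Correlations between the genes were taken over the 12 pigs in log2 CPM, with 28 pairs tested. The pair of hormones was the 1 pair that passed: ADIPOQ and LEP had a Pearson r of 0.861 (permutation p = 0.0003, adjusted p = 0.0084) and a Spearman rho of 0.902 (permutation p = 8.0e-05, adjusted p = 0.00224). Within the high IMF group r was 0.941 (exact permutation p = 0.0111, n = 6), and within the low IMF group it was 0.830 (exact permutation p = 0.0319, n = 6). Without pigs 10 and 7, the farthest from the median of ADIPOQ, r was 0.947, and after centring each group on its mean it was 0.861. The relation was present in both groups as labelled, while no group difference in the level of either hormone was detected.

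**Figure D4:**
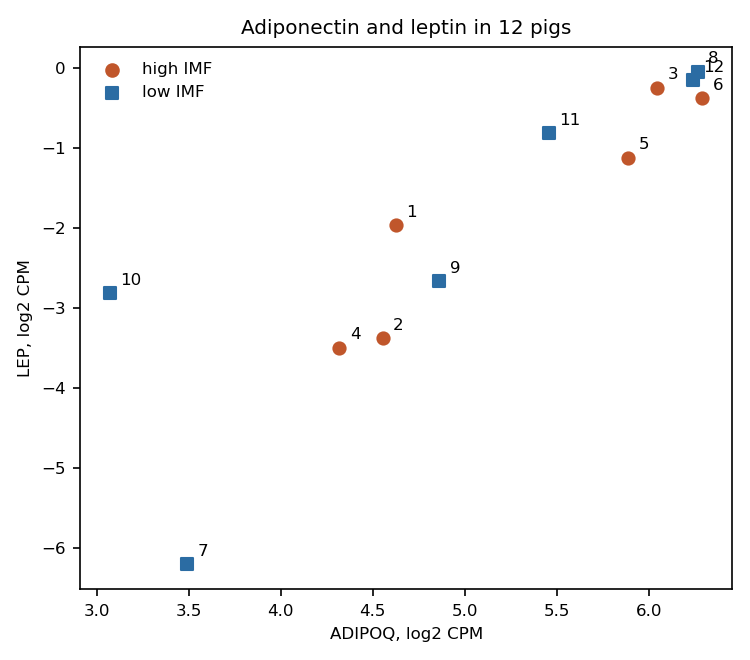
LEP against ADIPOQ in log2 CPM over 12 pigs, with circles for high and squares for low IMF and the pig number beside each point. The points rise together in both groups (r = 0.861), and pig 7, with 0 LEP counts, lies lowest; its value is set by the prior count of 2.

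The receptors did not follow their ligands at the threshold. LEP with LEPR had an r of -0.118 (permutation p = 0.721) and a rho of 0.147 (permutation p = 0.653). The sign differed between the measures, and without pigs 7 and 4 the r of LEP with LEPR was 0.464. ADIPOQ with ADIPOR1 had an r of -0.534 and a rho of -0.608 (adjusted permutation p = 0.416 and 0.414), and ADIPOQ with ADIPOR2 had an r of 0.589 and a rho of 0.322 (adjusted permutation p = 0.349 and 0.811). ADIPOQ with CDH13 had an r of -0.233 (permutation p = 0.461) and a rho of -0.210 (permutation p = 0.514). LEP with ADIPOR1 had the most negative r, -0.659, with a rho of -0.594 (adjusted permutation p = 0.245 and 0.414), and without pigs 7 and 4 its r was -0.335. Within the high IMF group that r was -0.938 (exact permutation p = 0.0139, n = 6) and within the low IMF group -0.521 (exact permutation p = 0.300, n = 6), a difference that was not tested.

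CFD, although made by fat cells, did not move with the hormones in these pigs. Its r with ADIPOQ was -0.024 (permutation p = 0.940) and its rho 0.077 (permutation p = 0.816), so the sign differed between the measures. With LEP its r was -0.281 (permutation p = 0.379) and its rho -0.049 (permutation p = 0.886). GPD1 had an r of -0.492 with ADIPOQ and -0.563 with LEP, and a rho of -0.538 with each (adjusted permutation p = 0.472 and 0.381 for r and 0.427 for both rho). Without the 2 farthest pigs these r were -0.448 and -0.252.

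**Figure D5:**
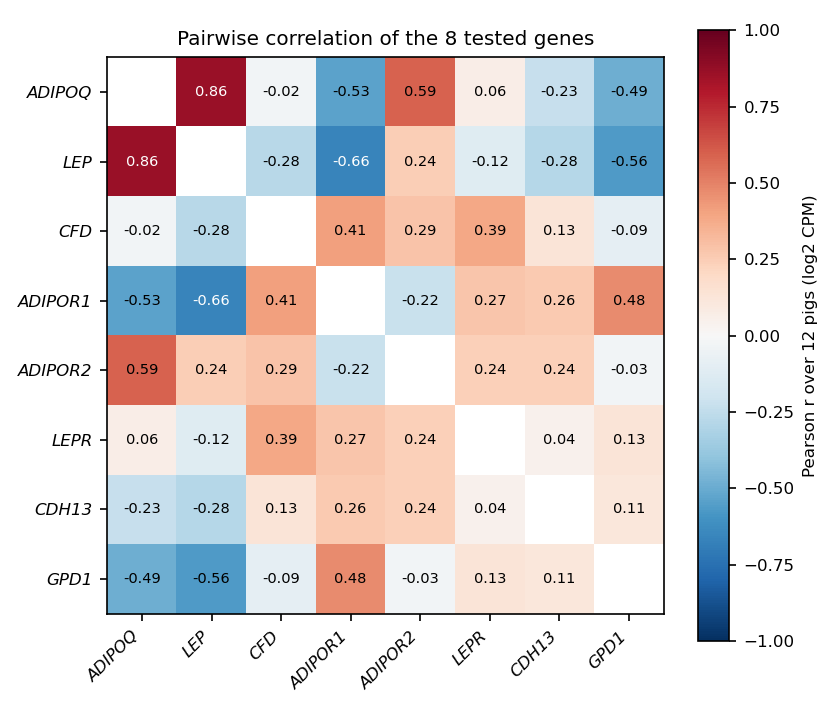
Pearson r of log2 CPM over 12 pigs for each pair of the 8 tested genes, red for positive and blue for negative. The ADIPOQ and LEP cell (0.861) is the strongest, the pairs of either hormone with ADIPOR1 and GPD1 are negative, and of the 28 pairs that of the hormones alone passed after adjustment.

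The genes most like ADIPOQ over the 12 pigs, among 9622 genes with a symbol and a mean of at least 1 CPM, were DGAT2 (r = 0.984), which makes triglyceride, CIDEC (0.959), which enlarges lipid droplets, ALDOC (0.953), an aldolase, PPARG (0.945), the main transcription factor of fat cell differentiation, and HACD2 (0.936), an enzyme of fatty acid elongation. These r are a measure of likeness and carry no test. With the groups centred they lay between 0.935 and 0.984. The genes most like LEP were JMJD4 (0.912), PPP1R1B (0.899) and KLB (0.897), the co-receptor of certain fibroblast growth factors.

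Of the 17 tested adipocyte markers, 9 had an r of at least 0.8 with ADIPOQ, against 47 of 14261 other genes tested (0.33%). Besides DGAT2, CIDEC and PPARG they were PLIN1 (0.936), FABP4 (0.897), THRSP (0.872), SCD (0.863), ACACA (0.857) and LGALS12 (0.855). The other tested adipocyte markers were less like it: FASN (0.723), ADIG (0.630), CEBPA (0.573), PLIN4 (0.510), LIPE (0.507), LPL (0.503), G0S2 (0.115) and PCK1 (-0.138). In no list of macrophage, endothelial, stromal, smooth muscle, muscle fibre, erythroid or leukocyte markers did a gene reach 0.8 with ADIPOQ. These counts were added after the data had been seen.

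The summed adipocyte markers ran from 448 to 743 CPM in high and from 288 to 855 CPM in low IMF pigs (exact permutation p = 0.807), and PLIN4, LPL and SCD, the most abundant of them, took the largest share. The median log2 fold change of the 17 was 0.13, with 9 positive and 8 negative. At an unadjusted p of 0.05, 0 were higher in low IMF and 2 higher in high IMF pigs, where 5.38% and 5.04% of all genes were. The 2 were the transcription factor CEBPA (log2 fold change -0.82) and the lipase inhibitor G0S2 (-1.41), both below 0.66 CPM in every pig. AGPAT2 was at 0 in every pig. The groups did not overlap for G0S2 and overlapped for the other 16, beside 0.659% of all genes without overlap.

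Of 32 relations between the 8 genes and 4 summed marker levels, computed after the data had been seen, ADIPOQ with adipocyte markers had an r of 0.825 (adjusted permutation p = 0.0166) and a rho of 0.769 (adjusted permutation p = 0.0763). That r was 0.856 in the high and 0.870 in the low IMF group (exact permutation p = 0.050 and 0.00417, n = 6 each) and 0.859 without pigs 10 and 7. CDH13 with stromal markers had an r of 0.777 (adjusted permutation p = 0.0354) and a rho of 0.860 (adjusted permutation p = 0.0189), and r was 0.857 without pigs 6 and 9. Within groups the CDH13 relation was 0.951 in low IMF (exact permutation p = 0.00556, n = 6) and 0.525 in high IMF pigs (exact permutation p = 0.289, n = 6). By gene, the r with CDH13 was 0.771 for COL1A2, 0.737 for COL1A1, 0.701 for COL6A3, 0.652 for COL3A1 and 0.647 for GSN. It was 0.367 for PI16 and 0.172 for MFAP5, but -0.625 for PDGFRA, -0.250 for DCN, -0.154 for LUM and -0.143 for DPT. The stromal sum was led by COL3A1, with a mean of 1372 CPM. CDH13 with endothelial markers had an r of 0.681 and a rho of 0.699 (adjusted permutation p = 0.167 and 0.116), so it did not pass. The remaining 29 relations did not pass either.

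The genes most like CDH13 were TTC28 (r = 0.931), CDH5 (0.920) and MBTPS1 (0.913), a Golgi protease gene that lies 251151 bases from it on chromosome 6. With the groups centred these r were 0.854, 0.834 and 0.831. For the other receptors the most alike were KLHDC3 (0.904), FGGY (0.897) and TSPAN17 (0.846) for ADIPOR1, PSME3 (0.850), C3orf38 (0.835) and ADPRS (0.820) for ADIPOR2, and ACSF3 (0.886), COMTD1 (0.869) and TSPAN7 (0.865) for LEPR. CFD was most like PODXL2 (0.873), MAGIX (0.862) and RPL28 (0.858), and GPD1 most like NR3C1 (0.828), the glucocorticoid receptor, AK1 (0.827), an adenylate kinase of muscle, and MORF4L1 (0.820).

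Downstream of the adiponectin receptors, 15 signalling genes were tested and 0 were called by edgeR, with a median log2 fold change of 0.02. At an unadjusted p of 0.05, 4 were higher in low IMF pigs and 0 higher in high IMF pigs, where 5.38% and 5.04% of all genes were. They were the fatty acid oxidation regulator PPARA (log2 fold change 0.63, SE 0.13), the kinase CAMKK2 (0.45), the kinase STK11 (0.22) and the coactivator PPARGC1A (0.92). PPARA was 8.31 ± 1.39 CPM in high and 12.9 ± 1.88 CPM in low IMF pigs (SD, n = 6 each) without overlap, as in 0.659% of all genes, with an edgeR adjusted p of 0.199. The study, using DESeq2 at the same thresholds, did call PPARA higher in low IMF pigs and also measured it by quantitative PCR. The call of PPARA thus differs between the analyses. The receptor adaptor APPL1 (0.02) and the catalytic kinase subunit PRKAA2 (-0.05) were near 0.

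Of the 15 leptin signalling genes tested 0 were called by edgeR, and the median log2 fold change was 0.11. At an unadjusted p of 0.05, 3 were higher in low IMF pigs, STAT5B (log2 fold change 0.21) and the adaptors SH2B1 (0.36) and GRB2 (0.21), and 2 were higher in high IMF pigs, the receptor kinase JAK2 (-0.33) and LEPROTL1 (-0.25), a relative of the leptin receptor overlapping transcript. The shares of all genes at that threshold were 5.38% and 5.04%. JAK2 was 34.4 ± 4.51 CPM in high and 27.3 ± 2.70 CPM in low IMF pigs without overlap, with an edgeR adjusted p of 0.419. STAT3 had a log2 fold change of 0.02, and SOCS3, a feedback inhibitor, one of -1.19 with an unadjusted edgeR p of 0.196.

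Around CFD, 5 genes of the alternative complement pathway were tested and 0 had an unadjusted p of at most 0.05, with C3 at 14.6 and 18.6 CPM in high and low IMF pigs. Around GPD1 and CIDEA, 11 genes of glycerol phosphate and lipid droplet metabolism were tested. At an unadjusted p of 0.05, GPAT4, which acylates glycerol-3-phosphate, was higher in low IMF pigs (log2 fold change 0.37, edgeR adjusted p = 0.435). PLIN2, a lipid droplet coat protein, was higher in high IMF pigs at that p (log2 fold change -0.80, edgeR adjusted p = 0.420). Its levels overlapped between the groups, at 83.9 ± 43.1 CPM in high and 48.1 ± 5.96 CPM in low IMF pigs (SD, n = 6 each). Beside both lists, 5.38% of all genes were higher in low IMF and 5.04% higher in high IMF pigs at that p. GPD2 (0.08) and GPD1L (0.08), the relatives of GPD1, had no unadjusted p of at most 0.05.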

How the data were processed

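RNA of 12 pigs was sequenced as paired reads. The authors trimmed reads with Trimmomatic, aligned them with HISAT2 to Sscrofa11.1, assembled known transcripts with StringTie and deposited HTSeq counts per Ensembl gene, without normalization. The annotation release and the strand setting are not given in the sources used here. Symbols were taken from the pig gene name table, and positions, exon lengths and sequences from RefSeq. Counts were filtered with filterByExpr, scaled with TMM and compared with edgeR 4.0.16 (R 4.3.3), low over high IMF, group as the only term, with Benjamini-Hochberg adjustment over 14262 genes. Libraries held 131048805 to 178013997 counts before scaling. CPM used the TMM-scaled library sizes (factors 0.81 to 1.123), and log2 CPM a prior count of 2. Group differences of single genes were also tested by exact two-sided permutation, and correlations by 100000 permutations (two-sided), adjusted over 28 pairs or 32 relations. All p-values take the pig as the unit of replication. The fit was tested on simulated data. DESeq2 1.42.0, limma 3.58.1, other scalings, filters and covariates and the leaving out of each pig were the alternatives. From each list the text names up to 4 genes with the smallest unadjusted p of at most 0.05. It also names up to 3 most abundant markers and, per gene studied, the 3 (ADIPOQ: 5) most alike genes. APPL1, PRKAA2, STAT3, STAT5B, SOCS3, C3, GPD2, GPD1L, KDR, EMCN, ROBO4 and the adipocyte and stromal markers listed by their r were chosen after their values were seen. The genes and lists were chosen with earlier results of these data known. The list of other adipokines is not reported here.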

Additional observations from a re-analysis of the deposited data

Results flagged for a closer look

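ADIPOR2 in pig 3 of the high IMF group stood apart from the other 5 pigs of its group, at a log2 CPM of 6.12 against 5.64 in the next highest pig. The gap made up 0.656 of the group's range, above the critical value of 0.625 for 6 samples. Of the 16 sets of 6 pigs examined (8 genes in 2 groups) it was the 1 that passed, and chance alone flags about 1 in 20. Without pig 3 the log2 fold change of ADIPOR2 was 0.12 in place of -0.0062, and it was not called. Pig 12 of the low IMF group had a similar level, 70.4 against 69.3 CPM.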

How the results depend on the processing

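None of the 8 genes was called under any of the 22 alternatives, and CDH13 kept a log2 fold change of 0.24 to 0.35 with edgeR, DESeq2 or limma adjusted p between 0.187 and 0.674. Without pig 2, CDH13 had groups that did not overlap, so that 0 to 1 genes did when each pig was left out. Pig 2 was the high IMF pig among the low IMF pigs for CDH13, so leaving it out separates the groups by construction. The share of all genes without overlap was not computed with a pig left out. The r of ADIPOQ with LEP passed under all 16 alternatives, from 0.814 to 0.957 (adjusted permutation p up to 0.0263), and without pig 11 LEP with ADIPOR1 also passed (r = -0.797), so that 1 to 2 pairs did. Signs near 0 changed: the r of ADIPOQ with CFD was 0.077 by Spearman and -0.306 to 0.295 with a pig left out, and that with LEPR -0.050 to 0.346. The log2 fold change of LEP was -0.25 with limma-voom and -0.29 with labelled age as a covariate, that of CFD -0.00057 with limma-voom and that of ADIPOR2 0.0058 with labelled sex. With each pig left out it ran from -0.41 to 0.078 for ADIPOQ, -0.21 to 0.48 for LEP, -0.073 to 0.14 for CFD, -0.13 to 0.14 for ADIPOR2, -0.060 to 0.53 for LEPR and -0.044 to 0.082 for GPD1. LEP had no value with at least 10 counts required in every pig, and no adjusted p from DESeq2 on the same genes. It could not be called in those settings. Over all genes, 0 were called by edgeR (1486 at an unadjusted p of 0.05), 57 by DESeq2 on the same genes and 64 by DESeq2 on all genes with a count, none of them among the 8, and 0 to 1 with a pig left out (1 without pig 5 and 1 without pig 10). The cause of these changes was not tested. With few counts, LEP and RETN are limited by depth, and 6 pigs a group leave wide intervals for ADIPOQ, LEP and LEPR. No paired analysis was possible because the pigs are separate animals, numbered 1 to 12, and no label pairs them across the groups.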
